A study of Mus musculus with 4 samples.

Results

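Homeobox, paired-box and T-box regulators outside the Hox clusters were followed in mouse embryonic stem (ES) cells with lowered T-UCstem1. Members were the symbols of the Pax, Lhx, Nkx, Dlx, sine oculis (Six2 and relatives), Irx, Msx, Tbx, Pitx, Barx, Emx, Alx, Meis and Pbx families in the deposited table, without Pax6 and Tbx3. The rule itself uses names only, and it was chosen with earlier results of these data known. The rule found 90 members among 23653 gene symbols, of which 80 were genes of these families and 10 were opposite-strand or antisense transcripts named after one of them. Each symbol stood on 1 row, and 1 member, Tbx21, shared its row with Tbkbp1.

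RNA sequencing was done on TBV2 cells, a mouse ES cell line, grown with serum and LIF, the cytokine that holds ES cells in self-renewal. Feeder cells and high density are also named in the description of the series. There was 1 library from the control line labelled N.T. (NT) and 1 from each of 3 clones with knockdown (KD) of T-UCstem1, a long noncoding RNA with an ultraconserved sequence element. The authors combined the 3 KD clones into 1 FPKM per gene (fragments per kilobase of transcript, scaled to library size), so each gene has 1 value per condition, and values of single clones were not analysed here. No SD or n therefore accompanies an FPKM, and the control stands for 1 line in 1 library.

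The proteins of these families bind DNA and set regional and cell identity in the embryo. Homeodomain families such as Lhx, Nkx, Dlx and Irx pattern the neural tube, placodes and limbs. Pax proteins carry a paired domain, and T-box proteins carry a DNA-binding domain of their own that is shared with brachyury. Pbx, Meis and Irx belong to the TALE class of homeodomain proteins. Pbx and Meis act mainly as DNA-binding partners of Hox and other homeodomain proteins. In ES cells most of these genes are held silent under Polycomb marks while their promoters keep active marks as well, a state called bivalent, whereas several TALE genes are broadly expressed.

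Few of the members were expressed above 1 FPKM, and none passed the authors' test. In the NT control 15 of 90 members reached 1 FPKM and in the KD 19 did, with 20 reaching it in either condition. Cuffdiff tested 24 members and marked 0 of them, where it marked 1.15% of all 15477 tested rows. The other 66 members were not tested, the status Cuffdiff gives to genes with too few fragments. At a deposited p below 0.05 without adjustment there were 6 of the 24 tested members, against 8.88% of all tested rows. Of these, 5 were higher in the KD (background 6.1%) and 1 was lower (background 2.78%). A member that was low in NT could enter the test only through the KD, so the count among tested members is given without further reading. Over all 90 members the median log2((KD FPKM + 1)/(NT FPKM + 1)), called the log2 fold below, was 0.085, beside 0 over the 23703 named rows.

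Members above and below 1 FPKM are described apart. Among the 20 members at 1 FPKM or more, 10 were higher in the KD and 10 lower, where 53.1% of all named rows at that level were higher. Their median log2 fold was -0.0079, beside 0.022 for the 12330 rows of that level. Among the 70 members under 1 FPKM in both conditions, 56 were higher in the KD, 8 were lower and 6 were listed at 0 in both. Of all named rows under 1 FPKM, 41% were higher, and many of those rows were at 0 throughout. Counted over members above 0 in either condition, 56 of 64 were higher, beside 73.1% of such rows. The counts of higher genes by family given below stand beside these shares. Summed over the 70 members the level was 12.5 FPKM in KD cells and 5.87 FPKM in NT. Both sums were below the level of Pbx2 alone. Over all named rows under 1 FPKM in both conditions the sums were 1366 FPKM in KD cells and 972 FPKM in NT. On the log2(FPKM + 1) scale 1 member was at least 2-fold higher, where 1.63% of all named rows were.

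**Figure D1:**
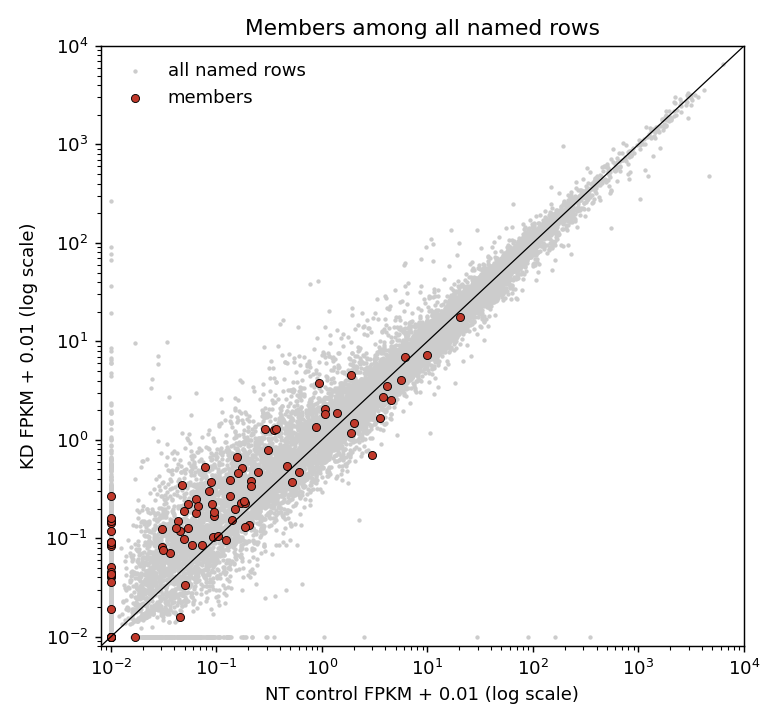
FPKM of each named row in the NT control (horizontal axis) and the KD (vertical axis), both with 0.01 added and on log scales; red points are the 90 members and the black line marks equal values. Members above 1 FPKM lie on both sides of the line, while 56 of the 70 members under 1 FPKM lie above it.

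All 7 Pbx and Meis genes reached 1 FPKM. Pbx2, a broadly expressed partner of Hox proteins, was the most abundant member, at 17.8 FPKM in KD cells and 20.1 FPKM in NT (row on chromosome 17, 34729416 to 34734286, build mm9). Its log2 fold was -0.17, with p = 0.54 by the authors' deposited table. Pbx3 was at 4.05 FPKM against 5.55 FPKM, and Pbx4, the testis-enriched paralog, at 2.74 FPKM against 3.80 FPKM. These 3 Pbx genes were lower in the KD, each by less than 1.4-fold, and the smallest q among them was 0.999. The Meis genes spread more widely. Meis1, a cofactor known from blood stem cells, was at 1.27 FPKM in KD cells and 0.279 FPKM in NT (chromosome 11, 18780431 to 18918972), 4.56 times as high. Its log2 fold was 0.83, and the authors' deposited p of 0.00535 came with q = 0.175, so it did not pass. Meis3 was at 2.04 FPKM against 1.06 FPKM with q = 0.863. Meis2 went the other way, at 1.47 FPKM against 2.01 FPKM, with q = 0.999.

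The sine oculis homeobox genes, which work with Eya coactivators in muscle, kidney and sensory placodes, split evenly, with 3 of 6 higher and 3 lower. Six4 was the second most abundant member, at 7.17 FPKM in KD cells and 9.95 FPKM in NT, with a log2 fold of -0.42 and q = 0.753 by the authors' deposited table. Six6, an eye and pituitary gene on the same chromosome, was near 0, at 0.00594 FPKM against 0.0353 FPKM. Six5 was at 1.15 FPKM against 1.88 FPKM, on a row that overlaps an unnamed locus, so its reads may be shared. Six2, a gene of nephron progenitors, and Six3, a gene of forebrain and eye, lie next to each other on chromosome 17. They stood at 0.241 and 0.173 FPKM in the KD and 0.0545 and 0.0856 FPKM in NT, and neither was tested.

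**Figure D2:**
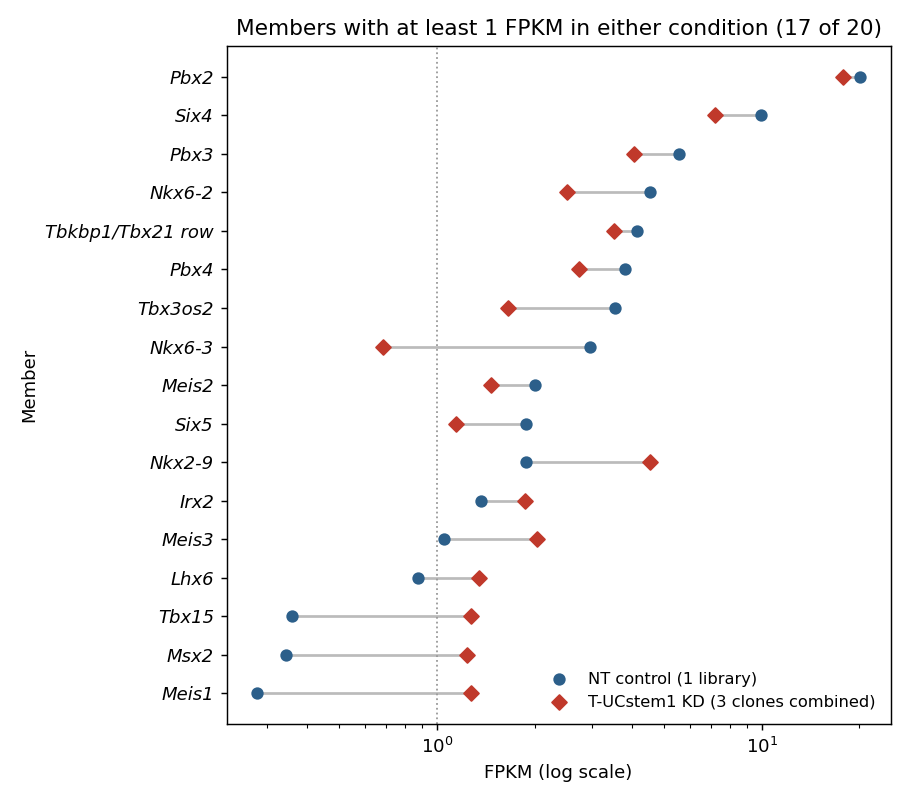
FPKM (log scale) of 17 of the 20 members with at least 1 FPKM in either condition, ordered by the NT value; circles are the NT library, diamonds the 3 KD clones combined, and the dotted line marks 1 FPKM. The widest gaps shown are those of Meis1, higher in the KD, and Nkx6-3, lower in the KD.

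Nkx genes gave both the lowest p and the widest spread of any family. Nkx6-3, a gene of stomach and gut endocrine cells, was at 0.685 FPKM in KD cells and 2.95 FPKM in NT (chromosome 8, 24261998 to 24272854). That is 4.31 times as high in NT, with a log2 fold of -1.23. In the authors' deposited table its p of 0.00115 and q of 0.0774 were the smallest of all members and did not pass. Nkx6-3 was the 1 member at least 2-fold lower on the log2(FPKM + 1) scale, where 0.283% of all named rows were. Nkx6-2, its paralog in the ventral neural tube and in oligodendrocytes, was also lower, at 2.51 FPKM against 4.52 FPKM with q = 0.999. The Nkx6-2 row spans a locus that it shares with Inpp5a, a gene at 9.65 FPKM in NT. Nkx6-1, the third paralog and a beta-cell gene, was listed at 0 in NT and at 0.110 FPKM in the KD.

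Nkx2-9, a gene of the ventral midline of the neural tube, was higher, at 4.53 FPKM in KD cells and 1.88 FPKM in NT, with p = 0.0543 and q = 0.582 as listed in the authors' deposited table. Both genes that flank it on chromosome 12 were near 0. Nkx2-1, a thyroid and lung regulator, was at 0.0757 FPKM against 0.0493 FPKM, and Pax9, a pharyngeal pouch and tooth gene, at 0.256 FPKM in the KD and listed at 0 in NT. The remaining Nkx genes were under 1 FPKM and untested. Among all 11 Nkx genes below 1 FPKM, 10 were higher in the KD and 1, Nkx2-6, was listed at 0 in both conditions. Of all named rows at that level and above 0 in either condition, 73.1% were higher. Nkx2-5, a heart gene, was at 0.181 FPKM against 0.0395 FPKM, and Nkx2-2, which acts in ventral neural tube and pancreas, at 0.140 FPKM against 0.0330 FPKM. The Nkx2-2 row overlaps 6430503K07Rik, at 0.178 FPKM in the KD and listed at 0 in NT. Nkx1-2 was at 0.159 FPKM against 0.0840 FPKM and Nkx1-1 at 0.116 FPKM against 0.0443 FPKM. Nkx2-3, Nkx2-4 and Nkx3-2 were listed at 0 in NT and lay between 0.0768 and 0.149 FPKM in the KD.

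Pitx1, a hindlimb and pituitary gene, was at 0.115 FPKM against 0.0202 FPKM, and Pitx3, a gene of lens and dopaminergic neurons, at 0.0818 FPKM and listed at 0 in NT. Neither was tested.

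The Msx and Irx genes were all higher in the KD and mostly low. Msx2, a target of BMP signalling in limb and neural crest, was at 1.24 FPKM in KD cells and 0.344 FPKM in NT (chromosome 13, 53562250 to 53568149), 3.60 times as high. It had a log2 fold of 0.74, p = 0.0284 and q = 0.436 as listed in the authors' deposited table. Msx1 was at 0.220 FPKM against 0.178 FPKM, and shared its locus with the opposite-strand transcript Msx1os, at 0.171 FPKM against 0.0544 FPKM. Msx3, the dorsal neural tube member, was at 0.108 FPKM against 0.0347 FPKM. Among the Irx genes, which subdivide the neural plate and heart, Irx2 was the most abundant, at 1.87 FPKM against 1.37 FPKM with q = 0.999. Irx3 was at 0.775 FPKM against 0.301 FPKM with q = 0.712, also not past the test. Irx1 and Irx5 were at 0.378 and 0.289 FPKM in the KD and 0.125 and 0.0744 FPKM in NT. Irx4 was at 0.219 FPKM against 0.160 FPKM, and Irx6 was listed at 0 in NT and at 0.0324 FPKM in the KD.

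T-box genes were led by the shared row of Tbkbp1 and Tbx21, at 3.52 FPKM in KD cells and 4.14 FPKM in NT. How much of that row belongs to Tbx21, the T helper cell regulator T-bet, cannot be read from it. Tbx15, a gene of skeleton and fat, was at 1.28 FPKM in KD cells and 0.359 FPKM in NT (chromosome 3, 99057683 to 99158183), 3.57 times as high. Its log2 fold was 0.75, with p = 0.0133 and q = 0.295 as listed in the authors' deposited table. Tbx6, a gene of paraxial mesoderm, was tested at 0.359 FPKM against 0.505 FPKM, lower in the KD, with q = 0.999. The untested T-box genes were mostly higher. Tbx4, a hindlimb and lung gene, was at 0.454 FPKM against 0.150 FPKM, and its neighbour Tbx2 at 0.228 FPKM against 0.174 FPKM. Tbx20 and Tbx18, genes of heart and its outer layer, were at 0.327 and 0.202 FPKM in the KD and 0.201 and 0.0566 FPKM in NT. Tbx1, a pharyngeal gene, was at 0.116 FPKM against 0.0317 FPKM, whereas Tbx5, a heart and forelimb gene, was nearly equal at 0.0953 FPKM against 0.0924 FPKM. Tbx19 and Tbx22 were listed at 0 in NT and did not exceed 0.0332 FPKM in the KD, and Tbx10 was listed at 0 in both. Tbx3, which the rule leaves out and which is active in naive ES cells, was far above all of these, at 77.9 FPKM against 92.6 FPKM, with q = 0.994.

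Among the Pax genes, Pax8 alone was tested. A regulator of thyroid and kidney, it was at 0.654 FPKM in KD cells and 0.148 FPKM in NT (chromosome 2, 24276071 to 24331119), 4.42 times as high. Its log2 fold of 0.53 came with p = 0.0323 and q = 0.459 as listed in the authors' deposited table. The other Pax genes did not share a direction. Pax1, Pax5 and Pax7, of sclerotome, B cells and muscle progenitors, were lower in the KD, at 0.127, 0.0855 and 0.121 FPKM against 0.194, 0.114 and 0.176 FPKM. Pax2, a kidney gene, was at 0.0937 FPKM against 0.0822 FPKM. Pax3 was listed at 0 in NT and at 0.0359 FPKM in the KD, and Pax4 at 0 in both. Pax6, left out by the rule, was at 0.906 FPKM against 0.307 FPKM with q = 0.999.

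The LIM-homeodomain genes had 6 of 8 members higher. Lhx6, which guides cortical interneurons, was the 1 tested, at 1.35 FPKM in KD cells and 0.875 FPKM in NT, with q = 0.999 by the authors' deposited table. Lhx2, Lhx1 and Lhx5, of forebrain and head organizer, were between 0.212 and 0.257 FPKM in the KD and between 0.0442 and 0.123 FPKM in NT. Lhx3 and Lhx9 were higher by less than 0.05 FPKM, Lhx8 was lower at 0.0238 FPKM against 0.0401 FPKM, and Lhx4 was listed at 0 in both. In the Dlx family, which patterns branchial arches and forebrain interneurons, Dlx4 was tested and was lower, at 0.463 FPKM against 0.594 FPKM with q = 0.999. The Dlx4 row overlaps A730090H04Rik, at 0.578 FPKM in KD cells and 0.486 FPKM in NT, so its reads may be shared. Dlx3, 15.2 kb from Dlx4, was at 0.532 FPKM against 0.455 FPKM. Dlx2 was at 0.360 FPKM against 0.0796 FPKM and its neighbour Dlx1 at 0.0611 FPKM against 0.0263 FPKM. Dlx5 and Dlx6, adjacent on chromosome 6, were listed at 0 in NT and at 0.134 and 0.0743 FPKM in the KD.

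All 7 genes of the Emx, Barx and Alx families were untested, under 1 FPKM and higher in the KD. Of all named rows under 1 FPKM in both conditions and above 0 in either, 73.1% were higher. Emx2 and Emx1, which pattern the cerebral cortex, were at 0.518 and 0.337 FPKM in the KD and 0.0683 and 0.0375 FPKM in NT. These were the widest ratios of any member above 0 in both conditions, at 7.58 for Emx2 and still more for Emx1. They rest on a control level worth very few fragments. Emx1, Dlx5 and Dlx6 lie on chromosome 6, whose 566 named rows at 1 FPKM or more had a median log2 fold of 0.26. Barx1, a gene of stomach mesenchyme and teeth, was at 0.463 FPKM against 0.238 FPKM, and Barx2 at 0.0891 FPKM against 0.0389 FPKM. Alx1, a craniofacial gene, was at 0.375 FPKM against 0.203 FPKM, and Alx4 at 0.0716 FPKM against 0.0203 FPKM.

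**Figure D3:**
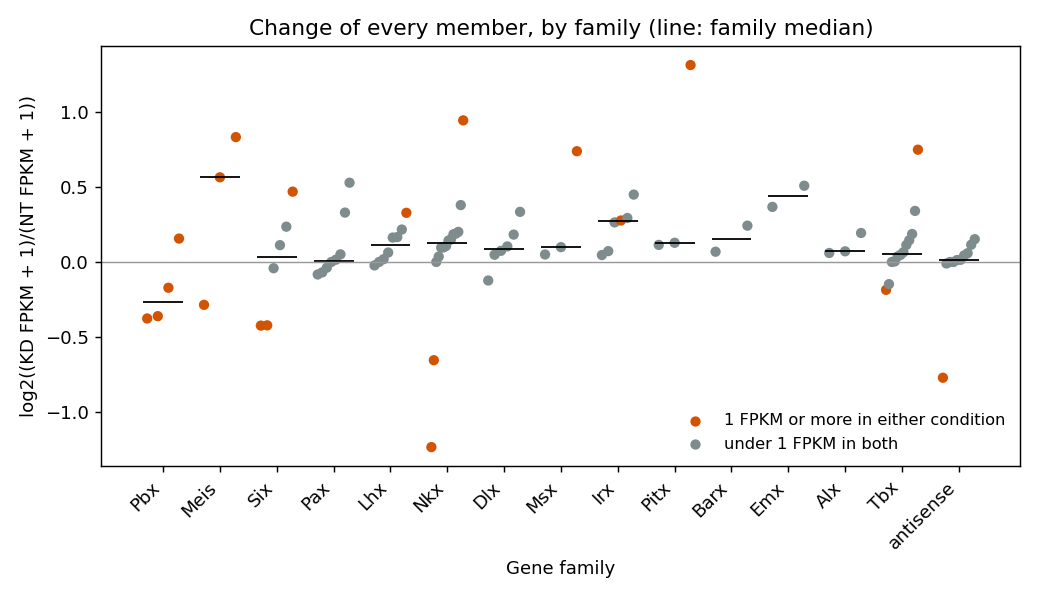
log2((KD FPKM + 1)/(NT FPKM + 1)) of each of the 90 members by family, with the 10 antisense transcripts in a column of their own; orange points reached 1 FPKM in either condition, grey points did not, and black lines are family medians. Medians run from -0.27 for Pbx to 0.56 for Meis, and grey points lie close to 0 because the added 1 FPKM damps low genes.

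The antisense and opposite-strand transcripts were low with 1 exception. Tbx3os2, which lies beside Tbx3 on chromosome 5, was the 1 expressed and tested, at 1.66 FPKM in KD cells and 3.53 FPKM in NT, with q = 0.720 by the authors' deposited table. Six3os1 was at 0.143 FPKM against 0.132 FPKM. Lhx1os, Emx2os, Dlx1as and Dlx6os1 were listed at 0 in NT and did not exceed 0.0826 FPKM in the KD. Nkx2-2os was listed at 0 in the KD and at 0.00709 FPKM in NT, while Dlx6as2 and Pax6os1 were listed at 0 in both. A use of strand is not stated, so reads of Msx1os, Dlx1as, Dlx6os1 and Nkx2-2os cannot be told apart from those of the genes at the same locus.

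Low members need their depth beside them. Among members above 0 and under 1 FPKM in both conditions, 40 of 47 were higher in the KD, beside 66.8% of the 4586 named rows in that range. The median ratio without a pseudocount was 2.29 for these members and 1.37 for the rows. NT was listed at 0 for 22 members and the KD for 7, and over the whole table the counts were 6809 and 5209 rows. In genes with 1 coding transcript of at least 1500 bases, the product of FPKM and kilobases most often took a lowest step of 0.031 in NT and 0.017 in the KD. If 0.031 is the worth of 1 fragment, the 57 untested members with a known coding length had a median of about 4 fragments in NT, and 42 of them had 10 or fewer. The part of this smaller step, and of combining 3 clones, in the direction of the low members was not tested.

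**Figure D4:**
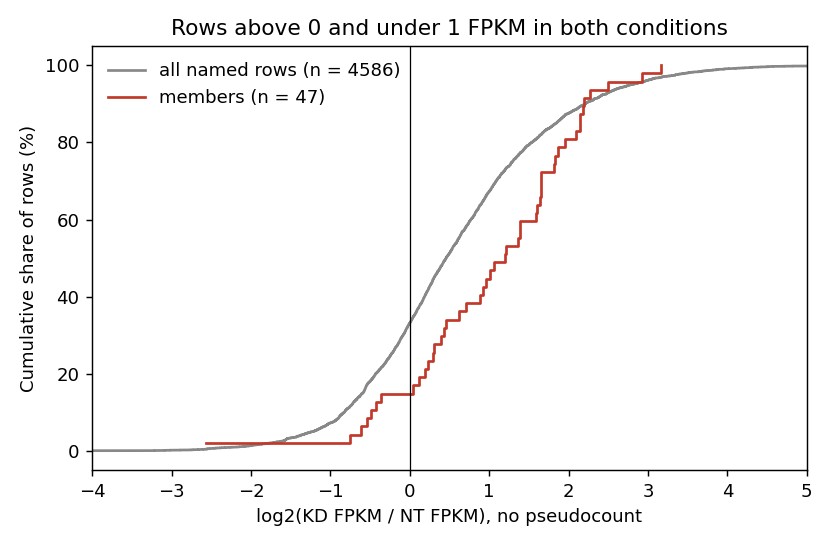
Cumulative share of rows (vertical axis, percent) by log2(KD FPKM/NT FPKM) without a pseudocount, for rows above 0 and under 1 FPKM in both conditions; the red line is the 47 members and the grey line the 4586 named rows. The red line lies to the right of the grey one over most of its length, with medians of 1.20 and 0.46.

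Promoter sequence was a shared feature that the rule did not use. RefSeq windows on GRCm38.p6, another build than the mm9 of the deposited table, were matched by symbol for 55 of the 80 genes, 1 window per gene. In the 250 bases before the start, these genes had a median of 15 CpG dinucleotides and 62% G+C, beside 6 and 52% over 27018 promoters. Those 27018 were the promoters of all symbols, antisense transcripts included, while the member windows left antisense transcripts out. The part of this unlike make-up in the shares was not tested. At least 10 CpG stood in 74.5% of the member windows and in 38.2% of all windows. The 13 matched genes at 1 FPKM or more had a median of 14 CpG and the 42 below it a median of 15.5. The 4 windows below are those of the members with a p below 0.05 for which the table holds a promoter, and of Pbx2, the most abundant member. CpG dinucleotides are in capitals, and each window is written in the direction of the gene.
Meis1: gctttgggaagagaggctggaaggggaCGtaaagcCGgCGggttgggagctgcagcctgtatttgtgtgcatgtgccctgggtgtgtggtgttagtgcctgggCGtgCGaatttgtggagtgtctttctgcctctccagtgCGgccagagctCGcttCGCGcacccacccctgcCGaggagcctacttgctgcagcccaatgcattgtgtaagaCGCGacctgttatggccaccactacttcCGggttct
Msx2: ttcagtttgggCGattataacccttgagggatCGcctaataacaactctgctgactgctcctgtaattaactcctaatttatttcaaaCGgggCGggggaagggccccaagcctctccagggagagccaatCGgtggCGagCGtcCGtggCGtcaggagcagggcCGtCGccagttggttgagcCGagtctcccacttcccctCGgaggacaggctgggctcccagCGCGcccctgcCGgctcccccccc
Pax8: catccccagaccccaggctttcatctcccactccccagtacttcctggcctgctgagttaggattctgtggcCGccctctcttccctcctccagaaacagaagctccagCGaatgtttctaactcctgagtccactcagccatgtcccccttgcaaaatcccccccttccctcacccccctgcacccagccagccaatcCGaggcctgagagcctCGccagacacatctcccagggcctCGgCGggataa
Pbx2: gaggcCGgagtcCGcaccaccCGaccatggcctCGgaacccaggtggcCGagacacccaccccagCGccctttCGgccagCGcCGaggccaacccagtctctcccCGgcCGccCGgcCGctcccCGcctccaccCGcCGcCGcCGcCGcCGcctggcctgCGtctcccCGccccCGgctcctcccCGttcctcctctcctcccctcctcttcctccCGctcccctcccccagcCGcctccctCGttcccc
The windows lie at chr11:19018970-19019219 (minus strand) for Meis1, chr13:53472781-53473030 (minus) for Msx2, chr2:24475600-24475849 (minus) for Pax8 and chr17:34592009-34592258 (plus) for Pbx2. They hold 13, 16, 6 and 27 CpG in that order. Pax8 thus stood at the median of all promoters, and Pbx2 had the densest window of the 4.

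Short motifs were searched on both strands of the same windows. GGGCGG, the core of a GC box, which itself holds a CpG, was found in 65.5% of member windows and 32.9% of all windows. TATAAA was found in 9.09% against 13% and CCAAT in 41.8% against 34.5%. TGACAG, the core recognised by Meis and Tgif proteins, stood in 16.4% of member windows and 16% of all windows. A match is a description of the letters in the window.

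Position was shared by several members, since many of these genes are in tandem pairs. There were 14 pairs of member genes with rows at most 200 kb apart. In 8 pairs both genes were higher in the KD, in 1 both were lower, in 4 they were opposite, and in 1 a gene was listed at 0 in both conditions. Nkx2-9 and Pax9 were a pair with 1 expressed partner, and both were higher.

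No tested gene in the lists of partner and related genes was marked, where 1.15% of all 15477 tested rows were. In lists this short, 0 marks is near that share. The authors marked 0 of 5 tested TALE partners, 0 of 6 LIM cofactors, 0 of 4 Eya and Dach genes and 0 of 6 Groucho corepressors. They also marked 0 of 4 tested genes in a list of other T-box genes, which holds Tbx3 and Tbx21, 0 of 26 in a list of other homeobox genes, which holds Pax6, and 0 of 22 BMP and Shh pathway genes. At an unadjusted p below 0.05 there were 5 of the 22 tested BMP and Shh genes, beside 8.88% of all tested rows, among them Bmp2 and Id3, which were higher, and Id1 and Gli2, which were lower. The Eya, Groucho and homeobox lists had 1 such gene each, among them Eya4 and Aes. Id3, a BMP target like Id1, was at 12.4 FPKM in KD cells and 3.73 FPKM in NT, against the direction of Id1. Median log2 folds lay between -0.26 for the Groucho list and 0.066 for the Eya and Dach list. Tgif1, a TALE repressor that competes for Meis sites, was at 144 FPKM in KD cells and 122 FPKM in NT, and Tgif2 at 11.1 FPKM against 13.4 FPKM. Ldb1, the bridging factor of LIM-homeodomain proteins, was at 86.7 FPKM against 92.4 FPKM, and Ssbp4, its stabilising partner, at 33.5 FPKM against 38.2 FPKM. Eya3, a coactivator of Six4 and its relatives, was at 13.3 FPKM against 12.7 FPKM, well above Eya1 at 0.779 FPKM against 0.974 FPKM. Aes, a short Groucho-family protein, was at 173 FPKM against 247 FPKM with q = 0.373 by the authors' deposited table, and Tle3 at 29.6 FPKM against 39.8 FPKM with q = 0.654. Of 6 Groucho genes found, 5 were lower in the KD and none passed. Among all named rows at 1 FPKM or more in either condition, 53.1% were higher in the KD. In the BMP and Shh list, Id1, a direct BMP target, was at 27.9 FPKM against 50.4 FPKM with q = 0.352, and Gli2, a Shh effector, at 24.5 FPKM against 34.8 FPKM with q = 0.423. Mga, a large T-box repressor, was at 45.9 FPKM against 48.5 FPKM.

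Markers of ES cells and of other cells stood as follows beside these values. All 8 ES cell markers were tested, none was marked and none had a p below 0.05, with Pou5f1 at 1078 FPKM in KD cells and 1036 FPKM in NT, and Nanog at 489 FPKM and 434 FPKM. Each of 11 primitive and visceral endoderm markers was higher in the KD, 9 of them marked by the authors, and their summed level was 312 FPKM against 37.1 FPKM, with none at 0. Of 14 feeder fibroblast markers 12 were higher and 1 lower, 5 of 8 tested had a p below 0.05 (8.88% of all tested rows), all 5 higher in the KD, and 1, Vim, was marked. The collagen genes Col1a1 and Col1a2 were among them, at 3.63 and 4.03 FPKM in the KD and 0.920 and 1.12 FPKM in NT, with p = 0.0018 and 0.0006 by the authors' deposited table. The 14 fibroblast markers summed to 126 FPKM in the KD and 55.2 FPKM in NT, of which Vim made up 102 and 42.8 FPKM. Lum was listed at 0 in both conditions and Fap at 0 in NT and 0.019 FPKM in the KD. Neural markers were higher in 7 of 8 cases, with Nes marked, at a summed 57.8 FPKM against 41.2 FPKM. Most of that sum was Tubb3, at 47.3 FPKM in KD cells and 36.2 FPKM in NT. The 1 lower marker was the neural progenitor gene Sox1, at 2.03 FPKM in KD cells and 3.58 FPKM in NT. Neither Tubb3 nor Sox1 was marked. Of the 8 neural markers, 4 were tested and 3 reached 1 FPKM. Mesoderm markers were higher for 6 of 7 found, at a summed 2.14 FPKM against 1.42 FPKM. Eomes was the 1 tested and the 1 that reached 1 FPKM, at 1.05 FPKM in KD cells and 1.02 FPKM in NT, and was not marked. Counts of direction stand beside 53.1% higher among named rows at 1 FPKM or more. Among rows under 1 FPKM in both conditions and above 0 in either, 73.1% were higher. In RNA of a whole culture, more cells of a type and more RNA per cell cannot be told apart. The part of these cell types in the levels of Meis1, Msx2, Tbx15, Pax8 or the members under 1 FPKM was not tested.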

How the data were processed

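RNA was sequenced from 4 libraries of mouse TBV2 ES cells, 1 NT control and 3 T-UCstem1 KD clones. The authors' tools were TopHat, Cufflinks and Cuffdiff with build mm9, per the submitters' processing notes. Their versions, the annotation, the scaling and any use of strand were not given in the sources used here. Each gene has 1 deposited FPKM per condition. The columns named control and treated were taken as NT and the combined KD. The authors' p-value and q-value were deposited in the same table, and Benjamini-Hochberg adjustment over the 15477 tested rows gave the deposited q to within 5.2e-07. With 1 control library, these p-values hold no measured spread between control cultures.

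From the FPKM, log2((KD FPKM + 1)/(NT FPKM + 1)) was computed in Python 3.11.15. A pseudocount of 1 FPKM understates changes of low genes. No test was run on the FPKM, since each condition has 1 value. The 23703 rows with a symbol and a status of tested or not tested formed the background. Row starts were raised by 1 base to count from 1. A locus can span more than its named gene, and the rows of Pitx3 and Pax5 also overlap others, Elovl3 and 5730488B01Rik. The code was tested on simulated data. Named were members at 1 FPKM or more or with p below 0.05, and the rest of each family by values or ranges. Some items under this rule are not reported here. From the fixed lists, marked genes and the 2 most abundant were to be named. Cell type markers were given by count. Vim, Nes, Sox1, Tubb3, Eomes, Col1a1, Col1a2, Lum, Fap, Bmp2, Id3 and Eya4 were named after their values were seen. The members and lists were chosen with earlier results of these data known. Other pseudocounts, scalings, filters and thresholds were tried.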

Additional observations from a re-analysis of the deposited data

How the results depend on the processing

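No paired analysis was possible because the deposited table has 1 value per condition, and for the same reason no clone could be left out. The count of members called by the authors was 0, and it was 6 at a deposited p below 0.05 and 1 (Nkx6-3) at a q below 0.1. The median log2 fold of all 90 members was 0.085, and it was 0.48 with a pseudocount of 0.1 FPKM, 0.15 with 0.5 FPKM and -0.0079 over members at 1 FPKM or more, where its sign turned. The median of members at 1 FPKM or more was -0.0079. It was -0.0013 and -0.0045 with those pseudocounts, -0.030 centred on all named genes and -0.014 centred on the chromosome. It turned to 0.16 over rows with 1 symbol, which drops Tbx21, and to 0.16 over members at 0.5 FPKM or more, so its sign has no weight. Members at least 2-fold higher numbered 1, and 22 and 5 with a pseudocount of 0.1 and 0.5 FPKM, and 5 at 1.5-fold. Members at least 2-fold lower numbered 1, and 2 with a pseudocount of 0.1 FPKM and 3 at 1.5-fold. No pseudocount can change the direction of a member. Of the 21 members at 1 FPKM or more or with p below 0.05, none changed direction when centred. The shifts of centring were small, such as 0.022 for all named genes, so this says little about the directions. With a pseudocount of 0.1 FPKM, 10 of the 21 members moved by more than 1.5 times, and with 0.5 FPKM Pax8 alone did, to 0.83. No symbol stood on more than 1 row, so summing rows changed nothing. The 66 members without enough fragments for Cuffdiff have no test of their differences.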
